A study of Drosophila melanogaster with 20 samples.

Results

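Organic cation transporter-like genes of the fly encode membrane carriers related to the SLC22 and SV2 families of other animals. The 10 genes described here are CG6126, CG3168, CG4462, Orct, Orct2, CG7084, CG6231, CG8654, CG7342 and CarT, out of 11982 genes that the arrays measured with a probe set of a single symbol. A gene was included where it was on this list of names and the probe annotation gave a probe set its symbol alone. Each of the 10 genes had 1 such probe set, so the 10 probe sets stand for all of the listed genes.

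The data came from single-channel Affymetrix arrays of adult Drosophila melanogaster brain, with 20 arrays in 4 groups of 5. Whole brains were those of wild-type Canton S flies, with 5 brains in each sample. The other groups were cells sorted by fluorescence from 10 to 15 brains of flies carrying ELAV-GFP (neurons), REPO-GFP (all glia) or 9.137-GFP (surface glia), where GFP is a green fluorescent protein. Replicates were of different culture bottles and days, each with males and females, and the labels give no age beyond adult. Elav is a neuronal protein and Repo a glial one, and the cells that each line labels are known here only from its name. For sorting, brains were treated with collagenase and DNase at 37 degrees. Those for neurons were shaken at 1000 rpm and those for both glial groups at 500 rpm, and shaking lasted 5 min for surface glia and 20 min for the others. Line, dissociation and cell type cannot be told apart between the sorted groups, nor can sorting and genotype in the comparisons with whole brain.

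In animals the SLC22 carriers move small charged molecules across the plasma membrane. Some of them take up organic cations, others carnitine, which the cell needs to bring long fatty acids into mitochondria, and others organic anions and drugs. The SV2 proteins of vertebrates are relatives with the same fold that sit on synaptic vesicles. In the fly brain, surface glia form the blood-brain barrier, where the carriers of the cell membrane set which solutes pass between hemolymph and brain.

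Values are log2 expression levels per probe set as normalized by the authors, and a difference of 1 is a doubling on that scale. They were compared by limma with Benjamini-Hochberg adjustment over all 18769 probe sets, and a probe set was called higher or lower at an adjusted p under 0.05 and a difference of at least 1. A value was taken as above background where it exceeded the 95th percentile of 44 negative control probe sets on its own array. Averaged over the arrays, this percentile was 3.72 for whole brain, 4.39 for neurons, 5.15 for all glia and 5.23 for surface glia. The median SD among replicates was 0.15, 0.27, 0.59 and 0.58 in the same order, whereas the fit uses 1 spread for all groups.

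The sorted groups were checked against their markers. The 4 surface glia markers moody, Mdr65, Indy and Tret1-1 averaged 12.00 to 12.58 on the surface glia arrays, 8.02 to 11.69 on the all glia arrays and 4.24 to 5.02 on the neuron arrays. The 4 measured neuron markers, elav among them, averaged 10.52 to 12.55 in surface glia and 12.76 to 12.96 in neurons, so neuronal transcripts were abundant in the glial sorts too. Of 5 general glia markers, repo among them, surface glia had 5 called higher than neurons, beside 10.4% of all probe sets. Against whole brain, surface glia had 0 higher and 1 lower, and all glia 0 higher and 3 lower, beside 19.4% and 14.8% lower of all probe sets. The 1 lower call in surface glia, of bnb (−1.01), was lost without surface glia 1 (−0.89), surface glia 4 (−0.96) or whole brain 5 (−0.98). Of the markers of other glia, alrm and Gat of astrocyte-like glia averaged 11.11 to 11.95 in whole brain and 3.70 to 6.75 in all glia. The 6 fat body markers averaged 7.81 to 9.21 in surface glia, 6.87 to 7.79 in all glia, 5.53 to 6.02 in neurons and 6.07 to 6.85 in whole brain. Of these 6, 4 were called higher in surface glia than in neurons, Yp1 and Yp2 among them. Fbp1 lay within the controls in surface glia, and Lsp2 exceeded them there on 1 of 5 arrays. The level of apolpp was 8.27 ± 2.87 (SD, n = 5) in surface glia, 8.28 in neurons and 10.97 in whole brain. It was called lower in surface glia than in whole brain (−2.71), where the other 5 were called higher, beside 19.4% and 31.6% of all probe sets. The hemocyte markers averaged 5.04 to 6.63 in surface glia and 3.71 to 3.91 in neurons, with 3 of 4 called higher (eater not without surface glia 4, at 0.96), and He within the controls in each group. The 2 cortex glia markers averaged 5.12 to 7.80 in surface glia, 5.54 to 8.63 in all glia and 9.55 to 9.98 in whole brain. Muscle markers had 1 of 4 called higher in surface glia than in neurons, averaging 4.12 to 8.69 there, and this call of Act88F was lost without any 1 of 6 arrays (down to 0.54 without surface glia 4). Tracheal markers had 0 of 3. Against whole brain, 4 of 4 muscle and 3 of 3 tracheal markers were called higher in surface glia, beside 31.6% of all probe sets. Several of these calls were lost on leaving out 1 array. Without surface glia 3, Mlc2 fell from 2.90 to 1.05 (still called) and up from 2.22 to 0.99. The part of such cells in the differences described next was not tested. In sorted cells, as in any bulk sample, fewer cells of a type and less RNA per cell cannot be told apart. The arrays least like the rest of their group were all glia 4 and surface glia 4.

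Most of the genes were at their highest in surface glia. They were chosen with earlier results of these data known, so the counts below are descriptive and do not test the family. Against neurons, 8 of the 10 were called higher in surface glia and 0 lower, where 10.4% of all probe sets were called higher and 15% lower. With each array centred on its median, higher calls went from 1959 to 1351 and lower calls from 2814 to 3107. The arrays of 7 genes did not overlap between these groups, all of them higher in surface glia, against 21.1% of all probe sets. The median difference of the 10 was 3.56, beside 0.36 over all probe sets. CarT and CG8654 were the genes that did not pass.

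Against whole brain, 7 of the genes were higher in surface glia and CG7084 was lower. Of the whole table, 31.6% was called higher and 19.4% lower, so calls were common in this comparison. The arrays of the same 8 genes did not overlap, against 39.6% of probe sets on the higher side and 17.2% on the lower. After a second quantile normalization they were 2784 higher and 2639 lower, where they had been 5933 and 3634. The median of the 10 was 1.75 and that of all probe sets 0.39. The negative controls themselves had medians of the difference of 1.18 between surface glia and whole brain and 0.66 between surface glia and neurons, so a small difference of a dim gene lies within this shift.

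Relative to all glia, 6 of the genes rose in surface glia and 0 fell, namely CG6126, CG3168, CG4462, Orct, Orct2 and CG6231. In this comparison 2.46% of all probe sets were called higher and 2.29% lower. The arrays of these 6 genes did not overlap between the groups, which held for 1.59% of all probe sets in that direction. The median difference was 1.55 for the 10 genes and 0.05 for all probe sets. Of the 5 general glia markers, 3 were called higher and 0 lower in this comparison, with a median of 1.59. A rise of this size was thus not particular to the 10 genes, and its cause was not tested. These calls rest on the spread shared by the 4 groups. Fitted on the 10 arrays of both glial groups alone, Orct remained called (adjusted p = 0.0314) and the other 5 were not, with adjusted p of 0.0903 to 0.163, and among all 18769 there were then 22 higher and 6 lower calls, where 461 and 429 had passed before.

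All glia lay between neurons and surface glia for the same 6 genes. Of the 10, 6 were higher in all glia than in neurons (CG6126, CG3168, CG4462, Orct, CG7084 and CG6231) and 0 lower, where 3.18% of all probe sets were called higher and 4.35% lower. Centred on array medians, these were 415 higher and 1022 lower against 596 and 816. Against whole brain, all glia had 4 genes higher (CG6126, CG4462, Orct2 and CG6231) and CG7084 lower, with 24.7% and 14.8% of all probe sets called in those directions. Without all glia 4 the higher calls went from 4627 to 2837 and the lower ones from 2770 to 2544. After quantile normalization there were 1927 and 1942, and 3 of the 10 genes were called, CG4462 and CG7084 no longer among them. Neurons had 4 genes lower than whole brain (CG6126, CG3168, Orct and CG7084) and CarT higher, beside 9.85% and 3.79% of all probe sets. With arrays centred on their medians, 1605 probe sets were lower and 1340 higher in neurons, against 1848 and 712. The 6 comparisons share their 4 groups and are therefore not independent.

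**Figure D1:**
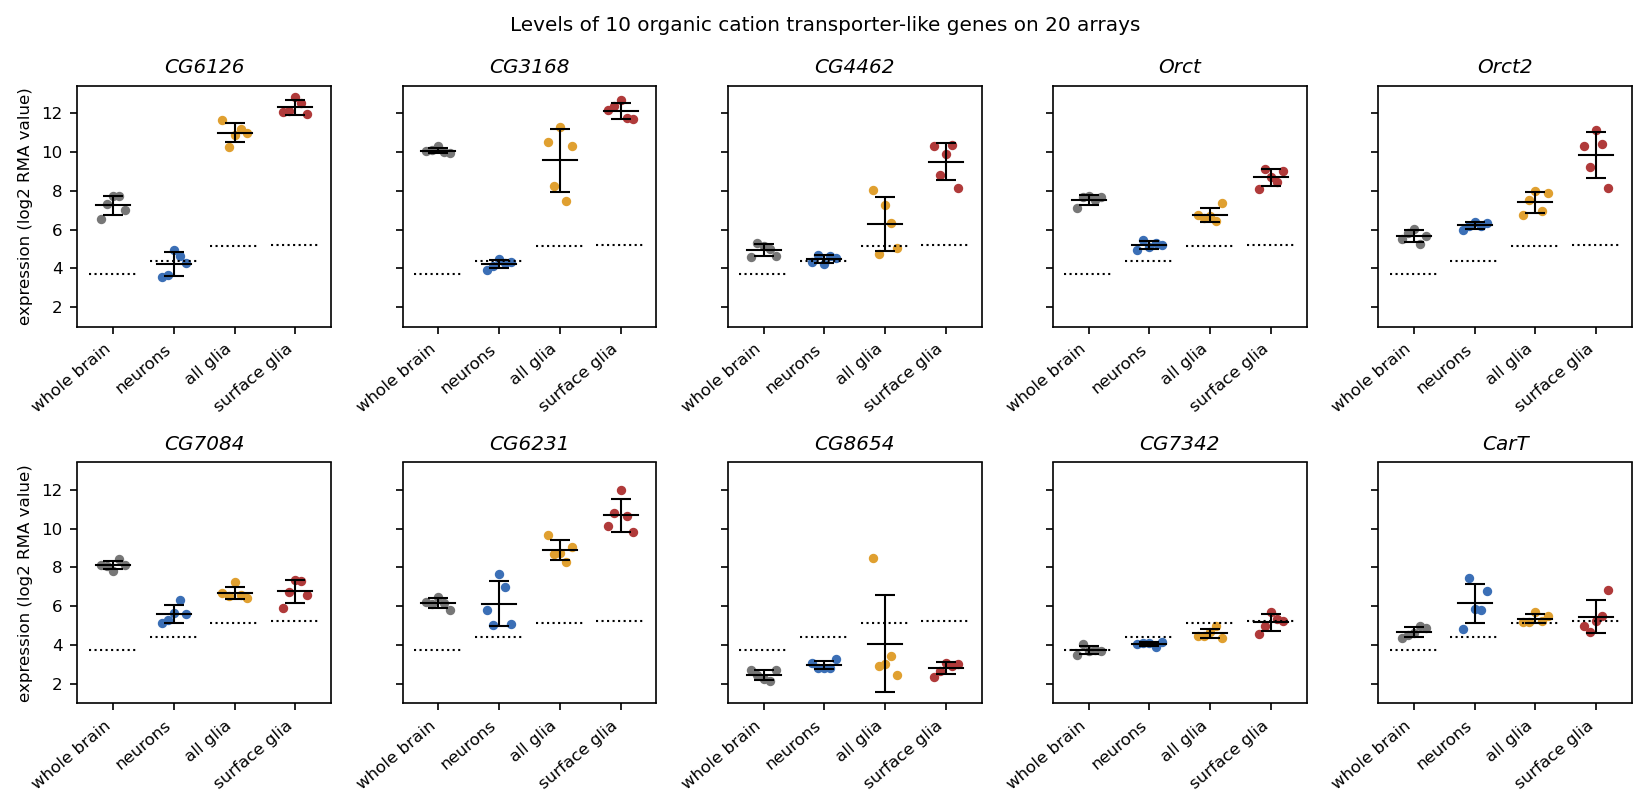
Log2 expression of the 10 genes, 1 panel each, in whole brain, neurons, all glia and surface glia. Points are the 5 arrays of a group, bars the mean ± SD and dotted lines the mean 95th percentile of the negative controls. CG6126, CG3168, CG4462, Orct, Orct2 and CG6231 are highest in surface glia, with no overlap with any other group, and CG8654 is above the controls on 1 array.

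The genes named for cation transport were Orct and its neighbour Orct2. Orct encodes the organic cation transporter of the fly. It was at 8.09, 9.14, 8.73, 8.47 and 9.04 on the 5 surface glia arrays and at 7.10, 7.70, 7.71, 7.52 and 7.68 in whole brain. It was at 6.75, 6.58, 6.68, 6.45 and 7.36 in all glia and at 4.95, 5.48, 5.12, 5.31 and 5.2 in neurons. The surface glia arrays lay above those of each other group, and the neuron arrays below those of each other group. The difference between surface glia and neurons was 3.48 (SE 0.22, adjusted p = 9.31e-10), or 11.2-fold. Surface glia were higher than all glia by 1.93 (SE 0.22, adjusted p = 6.57e-05) and than whole brain by 1.15 (SE 0.22, adjusted p = 0.000234). All glia were below whole brain by 0.78 (difference −0.78, adjusted p = 0.00608), less than the minimum of 1, and the arrays of these neighbours in order overlapped. The order of Orct was thus surface glia, whole brain, all glia and neurons.

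Orct2, also called calderon, encodes a carrier that is needed for growth of larval imaginal tissue. It was at 10.34, 9.22, 11.15, 10.43 and 8.13 in surface glia and at 6.76, 7.54, 7.98, 6.95 and 7.87 in all glia. In neurons it was at 5.96, 6.19, 6.41, 6.2 and 6.36, and in whole brain at 5.52, 5.82, 6.05, 5.27 and 5.69. Surface glia stood above the other groups, with a range of about 3 units between their own arrays, and whole brain was lowest. Between surface glia and whole brain Orct2 differed by 4.18 (SE 0.41, adjusted p = 3.11e-07), 18.2-fold, and between surface glia and all glia by 2.43 (SE 0.41, adjusted p = 0.00157). All glia were 1.75 above whole brain (SE 0.41, adjusted p = 0.00147). All glia and neurons did not overlap, and their difference of 1.20 narrowly missed the threshold (adjusted p = 0.0543). It passed without all glia 1 (1.36, adjusted p = 0.0379) and with the replicate number as a block (adjusted p = 0.0433). Neurons and whole brain differed by 0.55 (95% interval −0.30 to 1.41, adjusted p = 0.32) and overlapped.

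Orct and Orct2 lie next to each other in the genome but did not follow the same order of groups. Within each array, Orct2 minus Orct averaged −1.87 for whole brain, 1.01 for neurons, 0.66 for all glia and 1.16 for surface glia. It was at 2.25, 0.08, 2.42, 1.96 and −0.91 on the surface glia arrays and at 0.71 to 1.29 on the neuron arrays. This within-array difference was larger by 3.03 in surface glia than in whole brain, by 2.53 in all glia and by 2.88 in neurons. Each had p = 0.00794 in a two-sided exact permutation test of 5 against 5 arrays, the smallest that 252 splits can give, and adjusted p = 0.0159 over the 6 comparisons. The pair was chosen after its values were seen, so these p-values describe the separation and are no independent support for it. Whole brain, where Orct was high and Orct2 low, was the group that stood apart, at −2.25 to −1.58. Between pairs of sorted groups the mean of Orct2 minus Orct differed by −0.36 to 0.50, with exact permutation p of 0.19 to 0.817. Given the spread in surface glia, this does not show that the sorted groups are alike.

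CarT carries carcinine, the conjugate of histamine and beta-alanine, back into photoreceptors, where histamine is the transmitter. Its pattern was unlike that of the other genes, with the highest mean in neurons. It was at 4.82, 7.47, 5.85, 5.79 and 6.77 in neurons and at 4.35, 4.50, 4.63, 4.95 and 4.87 in whole brain. In all glia it was at 5.19, 5.17, 5.68, 5.24 and 5.47 and in surface glia at 4.98, 4.65, 5.24, 5.51 and 6.85. It exceeded the controls on each neuron and whole brain array, on 4 of 5 all glia arrays and on 3 of 5 surface glia arrays. Neurons spread over more than 2 units, and 1 of the 5 neuron arrays lay within the range of whole brain. CarT was higher in neurons than in whole brain by 1.48 (SE 0.41, adjusted p = 0.0149), and this was not called after quantile normalization (1.24, adjusted p = 0.0727). The negative controls had a median difference of 0.50 between these 2 groups, in the same direction. Surface glia minus neurons was −0.69 (95% interval −1.55 to 0.17, adjusted p = 0.156). It was called lower without neurons 1 (−1.02, adjusted p = 0.0443) and without surface glia 5 (−1.05, adjusted p = 0.0339). Between surface glia and all glia the difference was 0.10 (95% interval −0.76 to 0.96). Of 9 photoreceptor markers only trp and chp had a probe set of their own, and chp lay within the controls in each sorted group. The level of trp exceeded the controls on each array, with means of 5.55 for whole brain, 6.12 for neurons, 6.96 for all glia and 7.39 for surface glia.

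The remaining genes are known by number, and no substrate is given for them here. CG6126 had the widest span of group means. On the surface glia arrays it was at 12.06, 12.13, 12.85, 12.53 and 11.98, and on the all glia arrays at 11.66, 10.29, 10.87, 11.2 and 11. In whole brain it was at 6.57, 7.30, 7.71, 7.73 and 7.00, and in neurons at 3.55, 3.63, 4.95, 4.63 and 4.29. The 4 groups were fully separate, in the order surface glia, all glia, whole brain and neurons. In neurons it exceeded the controls on 2 of 5 arrays. The fitted difference of 8.10 between surface glia and neurons (SE 0.31, adjusted p = 5.21e-13) therefore has an uncertain size, and it was 7.77 with dim values raised to the percentile of the controls. CG6126 was higher in all glia than in whole brain by 3.74 (SE 0.31, adjusted p = 5.64e-08), 13.4-fold. It was higher in surface glia than in all glia by 1.31 (SE 0.31, adjusted p = 0.0173), which did not pass without all glia 2 (1.13, adjusted p = 0.0541) or without surface glia 3 (1.17, adjusted p = 0.05003), nor with array weights (1.33, adjusted p = 0.285).

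CG3168 was at 12.18, 12.37, 12.68, 11.78 and 11.69 in surface glia and at 10.07, 10.09, 10.31, 10.00 and 9.95 in whole brain. In all glia it was at 10.52, 8.23, 11.31, 7.49 and 10.32, and in neurons at 3.93, 4.12, 4.50, 4.26 and 4.31. Surface glia were highest on each array and neurons lowest, while the all glia arrays scattered on both sides of whole brain. Surface glia exceeded neurons by 7.92 (SE 0.50, adjusted p = 9.31e-10), or by 7.71 with dim values at the percentile of the controls, which CG3168 exceeded on 1 of 5 neuron arrays. Neurons were below whole brain by 5.86 (difference −5.86, SE 0.50, adjusted p = 5.20e-08). Surface glia were 2.57 above all glia (SE 0.50, adjusted p = 0.00484) and 2.06 above whole brain (SE 0.50, adjusted p = 0.00165). All glia minus whole brain was −0.51 (95% interval −1.56 to 0.54, adjusted p = 0.41).

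CG4462 was low everywhere except in surface glia and on some all glia arrays. In surface glia it was at 10.32, 8.82, 9.90, 10.35 and 8.17, and in all glia at 8.02, 4.76, 7.28, 6.35 and 5.03. In whole brain it was at 4.61, 5.31, 5.17, 5.01 and 4.65, and in neurons at 4.35, 4.69, 4.24, 4.62 and 4.52. It exceeded the controls on 3 of 5 all glia arrays and on 3 of 5 neuron arrays. The lowest surface glia array was just above the highest all glia array, and 2 of the 5 all glia arrays lay within the range of whole brain. Surface glia were higher than all glia by 3.22 (SE 0.52, adjusted p = 0.00112), 9.34-fold, and than whole brain by 4.56 (SE 0.52, adjusted p = 1.87e-06). All glia exceeded neurons by 1.80 (SE 0.52, adjusted p = 0.0325). That call was lost without all glia 4 (adjusted p = 0.0624) or without any 1 of neurons 1, 2, 3 and 4 (1.74 to 1.86, adjusted p of 0.0556 to 0.0714). All glia exceeded whole brain by 1.34 (SE 0.52, adjusted p = 0.0345), and this was lost without all glia 1 (0.91, adjusted p = 0.114), 3 (1.09) or 4 (1.32) and without whole brain 1, 4 or 5 (adjusted p of 0.0528 to 0.0704). Both differences lie beside shifts of the negative controls, of 0.61 between all glia and neurons and 1.12 between all glia and whole brain. Neurons and whole brain differed by −0.47 (95% interval −1.55 to 0.62) and overlapped.

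CG6231 was high in both glial groups. It was at 10.14, 10.80, 12.01, 10.64 and 9.83 in surface glia and at 9.69, 8.71, 8.73, 8.26 and 9.06 in all glia. In whole brain it was at 6.22, 6.11, 6.47, 6.18 and 5.78, and in neurons at 5.81, 5.02, 7.65, 6.98 and 5.10. The glial groups did not overlap with each other or with the rest, and the neuron arrays lay on both sides of whole brain. Surface glia exceeded whole brain by 4.53 (SE 0.46, adjusted p = 5.52e-07) and neurons by 4.57 (SE 0.46, adjusted p = 7.04e-07). All glia exceeded whole brain by 2.74 (SE 0.46, adjusted p = 0.000128). Surface glia exceeded all glia by 1.79 (SE 0.46, adjusted p = 0.0268). This last call was lost without all glia 2 (1.75, adjusted p = 0.06) or 3 (1.75, adjusted p = 0.0577), without surface glia 3 (1.46, adjusted p = 0.0717), without all glia 4 and surface glia 4 together (1.65, adjusted p = 0.0672) and with array weights (1.70, adjusted p = 0.252).

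CG7084 was the gene that was highest in whole brain. It was at 8.11, 8.09, 7.80, 8.41 and 8.12 there, at 6.70, 6.52, 7.23, 6.55 and 6.44 in all glia and at 5.89, 6.75, 7.33, 7.31 and 6.56 in surface glia. In neurons it was at 5.12, 5.29, 5.63, 6.29 and 5.61. Each sorted group lay below whole brain without overlap, by 2.52 for neurons (difference −2.52, SE 0.27, adjusted p = 9.93e-07), 1.42 for all glia (−1.42, adjusted p = 0.000325) and 1.34 for surface glia (−1.34, adjusted p = 0.000354). Both glial differences from whole brain were under the minimum of 1 after quantile normalization, at −0.99 and −0.71. The glial groups differed by 0.08 (95% interval −0.49 to 0.65). Surface glia were above neurons by 1.18 (SE 0.27, adjusted p = 0.00318), with overlap, and all glia by 1.10 (SE 0.27, adjusted p = 0.0161). The latter was not called without all glia 3 (0.96) or neurons 1 (0.98), nor with arrays centred on their medians (0.95).

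CG7342 and CG8654 were near background. CG7342 ranged from 3.45 to 4.02 in whole brain, 3.87 to 4.14 in neurons, 4.36 to 4.99 in all glia and 4.58 to 5.70 in surface glia. It exceeded the controls on 1 whole brain array, 2 surface glia arrays and 0 arrays of the other groups. Surface glia were called higher than neurons (fitted difference 1.11, adjusted p = 0.00045) and than whole brain by 1.44 (SE 0.20, adjusted p = 1.33e-05). The sizes are uncertain, since the surface glia mean of 5.15 lay below the mean control percentile of 5.23 there. These differences lie beside the shifts of 0.66 and 1.18 of the negative controls. The first fell to 0.98 without surface glia 3, 0.98 with centring and 0.76 after quantile normalization, and the second to 0.78 after quantile normalization, which ended both calls.

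CG8654 lay within the negative controls on 19 of 20 arrays. It was at 8.49 on all glia 1 and at 2.93, 3.01, 3.44 and 2.42 on the other all glia arrays. Its values were 2.14 to 2.72 in whole brain, 2.80 to 3.26 in neurons and 2.34 to 3.06 in surface glia. All glia minus whole brain was 1.62 (SE 0.74, adjusted p = 0.0716), and 0.51 without all glia 1 (adjusted p = 0.0611). It was called higher without all glia 2 (1.90, adjusted p = 0.0479) and without all glia 5 (2.03, adjusted p = 0.031), both of which keep the high array, and with array weights (1.69, adjusted p = 0.0195).

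**Figure D2:**
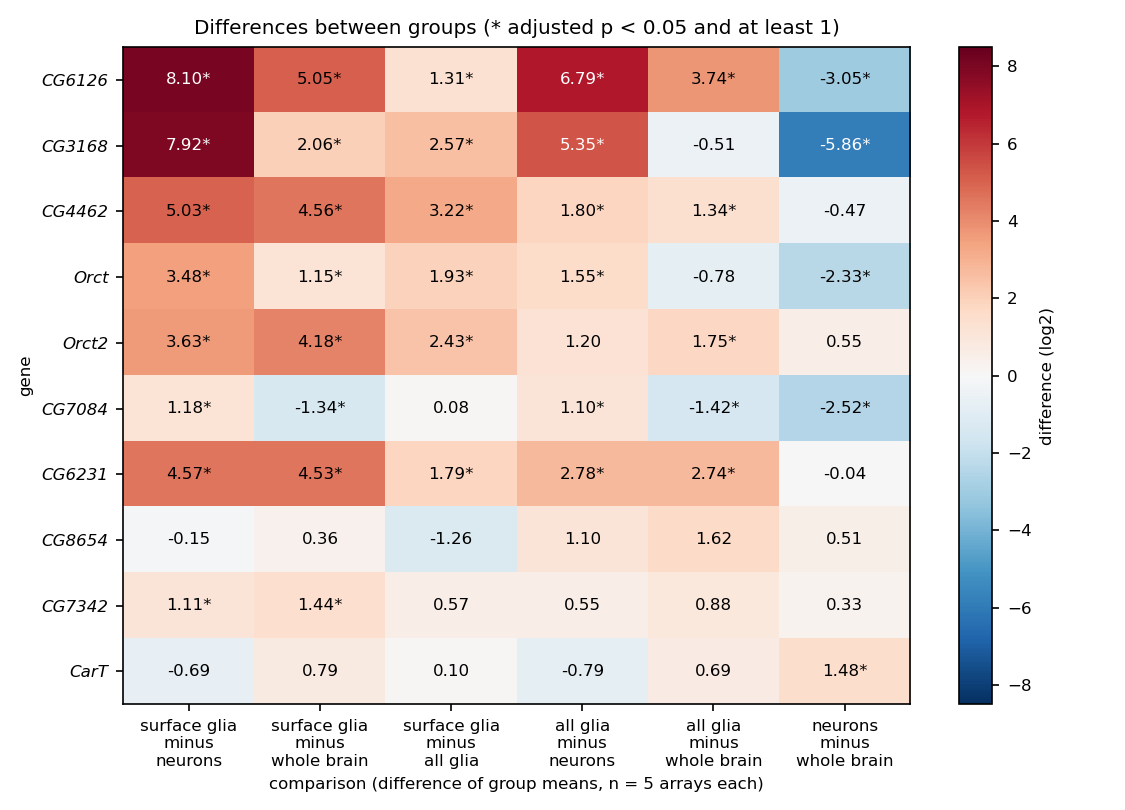
Differences of group means (log2, n = 5 arrays in each group) for the 10 genes (rows) in the 6 comparisons (columns). Colour runs from blue, lower in the group named first, to red, higher, and a star marks an adjusted p under 0.05 with a difference of at least 1. CG6126 and CG3168 reach 8.10 and 7.92 in surface glia minus neurons, and CG7084 is lower in each sorted group than in whole brain.

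Other genes of the same families were read beside these. Members and lists were chosen with earlier results of these data known, so the contrast between them is descriptive and no test. Of 16 other SLC22-like genes, 4 were higher and 0 lower in surface glia relative to neurons, with a median of 0.69, beside 10.4% and 15% of all probe sets. Of these 4, the calls of CG6356 (1.61), CG7333 (1.01) and CG42269 (1.02) were each lost on leaving out 1 of several arrays, with values down to 1.15, 0.73 and 0.90. Of the 16, 7 did not exceed the controls on any array of either group, CG42269 among them. Another probe set of CG42269 was at 0.37 and did not pass. Against all glia 1 of the 16, CG4630, was higher and 0 lower, where 2.46% of all probe sets were higher, and the median was 0.09. CG4630 was at 9.28 ± 0.46 (SD, n = 5) in surface glia, 7.83 ± 0.86 in all glia, 5.68 ± 0.19 in neurons and 6.23 ± 0.26 in whole brain. It was 3.60 above neurons (SE 0.32, adjusted p = 1.11e-07), 3.06 above whole brain and 1.45 above all glia (SE 0.32, adjusted p = 0.0105), with overlap in the last. Relative to whole brain 7 of the 16 were higher and 3 lower, beside 31.6% and 19.4% of all probe sets. CG7458, at 2.14, was at 10.46 on 1 surface glia array and had a median of 5.10 there, and its difference was 1.05 without surface glia 5 (adjusted p = 0.0238). The others were at 1.08 to 3.06, of which CG10486, CG14856 and CG16727 lay within the controls in both groups. Another probe set of CG14856 was at 0.97 and did not pass. The calls of CG10486 and CG16727 were lost without surface glia 4 (0.995 and 0.90) and that of CG7333 without surface glia 3 (0.99). The 3 lower ones were SLC22A at −1.53, CG6356 at −2.45 and Balat. With dim values at the percentile of the controls, SLC22A was at −1 and CG6356 at −1.93. Balat, which carries beta-alanine in the visual system, fell from 7.42 ± 0.18 in whole brain to a level within the controls in surface glia, by at least 2.20 (fitted difference −4.39, adjusted p = 1.66e-09).

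Of 7 other SV2-like genes, 0 were higher and 1 was lower in surface glia than in neurons, beside 10.4% and 15% of all probe sets, with a median of 0.55. The lower one was CG33233, at 8.06 ± 1.91 in surface glia and 10.73 ± 0.19 in neurons (difference −2.67, SE 0.62, adjusted p = 0.00344). Another probe set of CG33233 was at −1.07 and did not pass against neurons. Against whole brain the probe sets differed, since this other one was lower in surface glia at −2.29 (adjusted p = 0.00025) and the first was at −0.79 and did not pass. Against all glia neither direction had a call among the 7 by limma, and the median was −0.06. Against whole brain 4 were higher, at 1.15 to 1.51, of which CG31103 and CG3690 lay within the controls in both groups, and CG33234 was lower at −2.19, beside 31.6% and 19.4% of all probe sets. The call of CG31106 was lost without surface glia 4 (0.91). Other probe sets of CG14691, also among the higher genes, were at 1.35 (called) and 0.61 (not called). The lists of other family members were written from general knowledge and cover named genes alone.

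**Figure D3:**
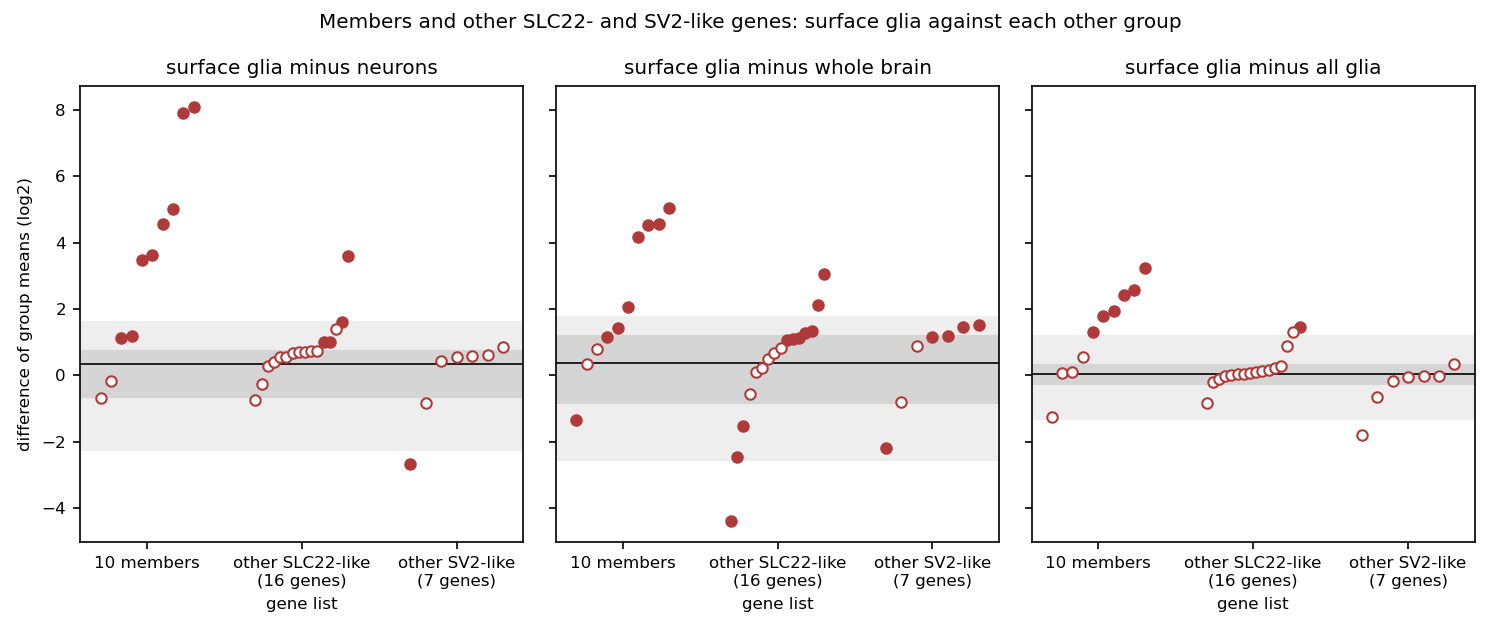
Difference of surface glia from neurons, whole brain and all glia (log2) for the 10 genes, 16 other SLC22-like and 7 other SV2-like genes. Each point is a gene, filled where it was called, and the bands run from the 25th to the 75th and from the 5th to the 95th percentile of all 18769 probe sets, with a line at their median. In surface glia minus all glia 6 of the 10 genes and 1 of the 16 are filled and higher. The genes and lists were chosen with earlier results of these data known.

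Some of the genes lie in runs of related genes, which need not share a pattern. CG7342 and CG6231 belong to a run of 6 adjacent genes in the order CG7333, CG7342, CG17751, CG17752, CG16727 and CG6231. CG6231 reached 10.68 ± 0.84 in surface glia, whereas CG17751, CG17752 and CG16727, which lie between it and CG7342, were within the controls in each of the 4 groups, at means of 2.26 to 3.60. CG7333, at the other end, was at 4.57 ± 0.71 in surface glia and exceeded the controls there on 1 of 5 arrays. CG6356 lies near Orct and Orct2, with the gene shps between it and Orct. CG6356 was highest in whole brain at 7.71 ± 0.31, and at 6.08 ± 1.64 in all glia, 5.27 ± 1.12 in surface glia and 3.66 ± 0.24 in neurons. Surface glia were below whole brain by 2.45 for CG6356 (difference −2.45, SE 0.59, adjusted p = 0.00153), where Orct and Orct2 were higher. CG6356 exceeded the controls on 2 of 5 arrays in each glial group. Its difference was −1.93 with dim values at the percentile of the controls.

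**Figure D4:**
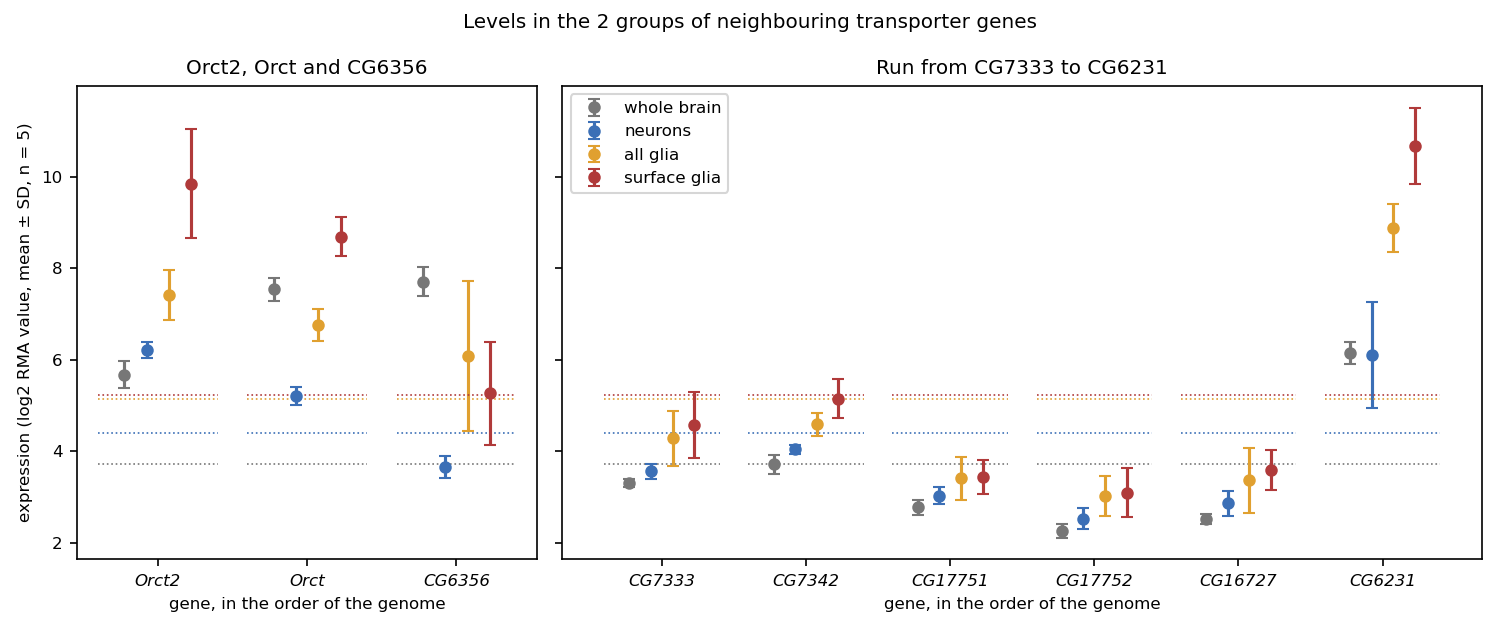
Log2 expression (mean ± SD, n = 5 arrays) of neighbouring transporter genes in the order of the genome, coloured by group, with dotted lines at the mean 95th percentile of the negative controls of that group. Orct2 and Orct are highest in surface glia and CG6356 in whole brain, and of the run from CG7333 to CG6231 CG6231 alone lies well above the controls.

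CarT and Balat act beside enzymes of histamine recycling, so these genes were read alongside. Of 6 measured genes of carcinine and histamine handling, surface glia had 4 below whole brain and 1 above it, beside 19.4% and 31.6% of all probe sets. Those lower were Balat, ine at −2.25, the carcinine synthase gene e (ebony) at −3.86 (SE 0.42, adjusted p = 1.18e-06) and the histamine synthesis gene Hdc, by at least 0.69 (fitted difference −3.56). In all glia the same 4 genes were lower than whole brain, with e at −3.98, and they were lower in neurons as well, beside 14.8% and 9.85% of all probe sets, with e at −2.78 in neurons. Hdc exceeded the controls on 1 of 5 neuron arrays, so the size of its fall there is uncertain (fitted difference −3.02, and −1.24 with dim values at the percentile of the controls). The call of ine in all glia (−1.77) was lost without all glia 3 (−1.28) or 4 (−1.43) or whole brain 4 (−1.68). The higher gene was the carcinine hydrolase gene t (tan) at 1.06, whose level exceeded the controls on 1 surface glia array. Its call was lost without surface glia 1 (0.49), without surface glia 2 or without any 1 whole brain array (1.03 to 1.09). CarT was thus higher in neurons than in whole brain, at 1.48 (not called after quantile normalization), where e, Balat, ine and Hdc were lower.

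Carnitine is a known substrate of some SLC22 carriers, so genes that use it were also examined. Of 5 such genes, surface glia had 3 higher than neurons and 0 lower, with a median of 1.88, beside 10.4% and 15% and a median of 0.36 over all probe sets. They were whd, the outer carnitine palmitoyltransferase gene, at 2.39 (SE 0.43, adjusted p = 0.000564), CPT2, its inner counterpart, at 3.33 (SE 0.54, adjusted p = 0.000183) and colt, a mitochondrial carnitine carrier gene, at 1.88 (SE 0.47, adjusted p = 0.0053). The same 3 were higher than in whole brain, at 2.58, 2.66 and 1.88, where 31.6% of all probe sets were higher. Where 2.46% were, whd and CPT2 were higher than in all glia, at 1.97 (adjusted p = 0.0105) and 2.04 (adjusted p = 0.0303). The latter was lost without any 1 of all glia 3, 4 and 5 and surface glia 1 and 3 (1.62 to 1.93). Another probe set of whd was at 0.55 against neurons and did not pass. CRAT was at 5.34 ± 1.62 in surface glia and 4.52 ± 0.43 in neurons, and CG5265 lay within the controls in both.

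The genes with the most similar profile were named for the 7 members whose group means spanned at least 2. Likeness was the root mean square difference of the 4 group means, each centred on its own mean, over 2743 genes with as wide a span. Nearest to CG6126 were Ppn, the matrix protein papilin, at 0.16, and lama at 0.50. Nearest to CG3168 were the serpin gene Spn43Ab at 0.17 and the juvenile hormone epoxide hydrolase gene Jheh2 at 0.31. CG4462 was closest to CG15279 at 0.14 and CG31097 at 0.22. Orct was closest to the amino-acid transporter gene JhI-21 at 0.08 and the cytochrome P450 gene Cyp12e1 at 0.14. Orct2 was closest to Glt, which encodes the basement membrane glycoprotein glutactin, at 0.12 and to CG31198 at 0.19. CG6231 was closest to CG10444 at 0.07 and to the muscle gene Obsc at 0.15. CG7084 was closest to the serpin gene Spn42Dd at 0.08 and the kinase gene Lk6 at 0.09. Likeness took no account of background. Spn42Dd had means of 3.71, 4.90 and 4.94 in neurons, all glia and surface glia, each below the mean control percentile. CG31097 and CG31198 were below it in whole brain, neurons and all glia, and several others in neurons alone. No gene was nearest to more than 1 of the 7.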

How the data were processed

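The labels give 20 arrays in 4 groups of 5, named by cell type in the titles. The deposited log2 values, 1 per probe set and array, are the authors' own summaries. The submitters' processing notes name RMA, limma and affy but no settings. The table holds 18952 probe sets. Without 183 for controls, 18769 remained, fitted by limma 3.58.1 (R 4.3.3) as group means, with empirical Bayes and Benjamini-Hochberg adjustment over each comparison. Scanner files were not used here.

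The negative controls were 44 control probe sets for bacterial and tag sequences. Names came from a probe annotation, brought up to date by gene identifier, with 13647 probe sets of 1 symbol, 402 of several and 4720 of none. A gene with several probe sets was represented by that with the highest mean over the 20 arrays. The probe sets of CG3168, CG7084, CG6231 and CarT are of designs that may match several transcripts. Levels of different genes were not ranked, and Orct2 minus Orct was used only to compare groups. A group within the controls on each array gives a lower bound, against the higher of its own value and the percentile of each array. For CG7342 none is given, since surface glia lay near the controls too. The order of genes came from the RefSeq gene table of assembly Release 6 plus ISO1 MT.

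The genes, lists and tests were chosen with earlier results of these data known. Named were the 10 genes, listed genes with a call in a comparison with surface glia, the 2 nearest profiles for each member spanning at least 2, and markers. Exceptions, named after their values were seen, were genes beside members in the genome, listed genes without such a call and genes high on all glia 1. The comparison of Orct with Orct2 and the leaving out of arrays for listed genes were also chosen after seeing the data. Alternatives were quantile normalization, centring, a filter on dim probe sets, the 10 arrays of 2 groups, a replicate block, array weights, leaving out each array, and leaving out all glia 4 and surface glia 4. The fit was tested on simulated data. The number of arrays limits the precision.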

Additional observations from a re-analysis of the deposited data

Results flagged for a closer look

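CG8654 was at 8.49 on all glia 1, far from the other 4 arrays of that group, which lay between 2.42 and 3.44. The gap was 0.832 of the range of the group, above the critical value of 0.71 for 5 samples. It was the only such value among the 40 sets of 5 arrays examined, where chance gives about 1 in 20.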

How the results depend on the processing

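No call of the 10 genes turned its direction under the alternatives run. Higher in surface glia than in neurons were 7 to 8 genes under the alternatives other than leaving out 1 array, and 7 to 9 genes were called with 1 array left out. The other counts with 1 array left out were 8 for surface glia against whole brain, 4 to 6 for surface glia against all glia, 4 to 7 for all glia against neurons, 4 to 6 for all glia against whole brain and 5 for neurons against whole brain. For surface glia against all glia, the count of 6 became 1 with the 10 arrays of the 2 groups alone, and for all glia against whole brain the count of 5 became 3 after quantile normalization. With array weights, CG6126 and CG6231 were no longer called in surface glia against all glia. After quantile normalization, CG7084 (−0.71) and CG7342 (0.78) were no longer called in surface glia against whole brain. With 1 array left out, all glia against neurons had 372 to 838 probe sets higher and 436 to 1041 lower, and surface glia against all glia 358 to 561 and 316 to 821. Quantile normalization moved the median difference of all probe sets from 0.36 to 0.14 for surface glia against neurons, from 0.39 to 0.18 for surface glia against whole brain and from 0.31 to 0.16 for all glia against whole brain. The filter on dim probe sets left 8 of the 10 genes, without CG7342 and CG8654. The cause of these changes was not tested.

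Among differences of single genes under an alternative, 943 kept direction and call, 39 were no longer called and 10 became called. The other 16, none of them called, changed sign. CG8654 in surface glia minus whole brain was −0.35 after quantile normalization. CG6231 in neurons minus whole brain was 0.10 after quantile normalization and 0.10 with centring, and −0.42 to 0.23 with 1 array left out. CG7084 in surface glia minus all glia was −0.0628 with array weights, −0.09 without all glia 4 and surface glia 4, and −0.0605 to 0.30 with 1 array left out. CarT in the same comparison was −0.0681 with array weights and −0.26 to 0.30 with 1 array left out. CG3168 in all glia minus whole brain was 0.011 without all glia 4 and surface glia 4, and −0.94 to 0.011 with 1 array left out. CG8654 in all glia minus neurons was −0.004 to 1.51 with 1 array left out.

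With the replicate block the counts were 8, 8, 6, 7, 5 and 5 in the order of comparisons surface glia against neurons, whole brain and all glia, all glia against neurons and whole brain, and neurons against whole brain. The labels tie the numbers to no shared day, and same-numbered arrays correlated over 0.1 in 2 of 5 pairs of surface and all glia and in 0 of 5 pairs elsewhere, so the pairing is a shared number alone.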

Other observations

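The array with the high value of CG8654, all glia 1, held 11 probe sets of single genes that were over 3 units above each of the other 19 arrays. Beside CG8654 these included CG10680 (10.74, at most 6.18 elsewhere), CG16772 (9.75 and 5.44), the eclosion hormone gene Eh (12.02 and 8.26), the gluconeogenesis gene Pepck1 (12.48 and 9.09) and the lipid droplet gene Jabba (9.85 and 6.73). The other all glia arrays held 0 to 3 such probe sets, and the surface glia arrays 5 to 91. The 6 fat body markers averaged 6.87 on all glia 1, the lowest of its group. These genes were chosen after their values were seen.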
